A study of Mus musculus with 2 samples.

Results

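mmu-miR-20a-5p and mmu-miR-17-3p come from the miR-17-92 cluster, and mmu-miR-93-3p comes from its paralog, the miR-106b-25 cluster. These 3 miRNAs were chosen by their fold change: they are the arms of both clusters that the study's lists of higher and lower miRNAs contain, at a threshold of 1.5-fold. They were found in the deposited values as 19 of 36249 probe sets, through the fold change given for each and its volume, which is the geometric mean of its log2 values on both arrays. The fold changes below are therefore a description of how the members were picked, and no test on the arrays stands behind them.

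The values come from 2 Affymetrix miRNA 4.0 arrays, 1 of brain RNA from control mice on normal chow and 1 of brain RNA from mice that received 0.2% cuprizone (CPZ), a copper chelator that kills oligodendrocytes, in their chow for 6 weeks. All mice were male C57BL/6, bought at 7 weeks of age and kept for 1 week before the diet began, with controls of the same age. The labels name the cerebellum and the methods the cerebrum as the tissue, and the sources do not say whether an array holds RNA of 1 animal or of several. Marker miRNAs of neurons, oligodendrocytes or microglia were not looked up here, so the tissue was not checked against them. Each diet has 1 array, so no spread between replicates was measured, no difference between the diets was tested, and precision is limited by how few arrays there are. In whole tissue, fewer cells of a type and less RNA per cell cannot be told apart.

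miRNAs are short RNAs that guide Argonaute proteins to matching sites in mRNAs, mostly through the seed, the bases 2 to 8 from the 5′ end. The miR-17-92 and miR-106b-25 clusters are each transcribed as a single RNA, from which several hairpins are cut, and each hairpin can give a 5p and a 3p arm. They are known for promoting the proliferation of progenitor cells: in mice miR-17-92 raises the number of oligodendrocyte-lineage cells, and miR-106b-25 promotes the proliferation of neural stem and progenitor cells. The seed family of miR-17-5p and miR-20a-5p targets the cell cycle regulators E2f1 and Cdkn1a and the TGFβ receptor Tgfbr2.

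The mature sequences of the 3 miRNAs are shown because the array reads each by its sequence and because their seeds differ. They are RefSeq sequences on the mouse build GRCm38.p6, 5′ to 3′, with the seed in capitals.
miR-20a-5p: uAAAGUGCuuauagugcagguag
miR-17-3p: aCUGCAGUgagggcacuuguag
miR-93-3p: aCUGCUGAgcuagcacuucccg
No pair of the 3 shares a seed. miR-20a-5p has 23 bases and lies at chr14:115044183-115044205 on the plus strand, in the gene Mir20a. miR-17-3p has 22 bases and lies upstream at chr14:115043721-115043742, in Mir17, with 440 bases between it and miR-20a-5p. miR-93-3p has 22 bases and lies at chr5:138165536-138165557 on the minus strand, in Mir93. The annotation places Mir93, Mir106b and Mir25 inside the protein-coding gene Mcm7, which encodes a subunit of the replicative DNA helicase.

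miR-20a-5p carries the seed AAAGUGC, which 7 of 1679 mature mouse miRNAs in the RefSeq table share. Of these 7, 6 are 5p arms of the miR-17-92, miR-106b-25 and miR-106a-363 clusters, and the remaining one is miR-6383. The other 5 cluster arms are shown with the seed in capitals, because they share the whole seed and differ from miR-20a-5p only outside it.
miR-17-5p: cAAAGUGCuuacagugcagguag
miR-20b-5p: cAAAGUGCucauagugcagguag
miR-106a-5p: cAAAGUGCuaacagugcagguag
miR-93-5p: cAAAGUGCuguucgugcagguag
miR-106b-5p: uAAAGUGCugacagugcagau
miR-20a-5p differs from miR-17-5p by the substitutions U1C and U12C, where the first letter is the base of miR-20a-5p and base 1 is its 5′ end. It differs from miR-20b-5p by U1C and U10C, and the run of bases they share is 13 long. miR-106a-5p is 3 substitutions away (U1C, U10A and U12C), and miR-93-5p is 4 away (U1C, U10G, A11U and A13C). Whether the probe sets of miR-20a-5p read these other RNAs was not tested.

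miR-17-3p shares its seed CUGCAGU with 2 other mature mouse miRNAs, both 3p arms of the miR-106a-363 cluster. They are shown with the seed in capitals, beside miR-20a-3p, whose seed is CUGCAUU.
miR-20b-3p: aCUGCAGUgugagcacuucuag
miR-106a-3p: aCUGCAGUgccagcacuucuuac
miR-20a-3p: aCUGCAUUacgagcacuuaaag
miR-17-3p differs from miR-20b-3p by 3 substitutions (A10U, G12A and G19C) and from miR-20a-3p by 6. The seed of miR-93-3p, CUGCUGA, occurs in no other mature miRNA of the table. miR-93-3p and miR-17-3p, both 3p arms of 22 bases, are identical at 14 positions, and their longest shared run is 6 bases. miR-20a-5p had a GC content of 39.1%, against 54.5% for miR-17-3p and 59.1% for miR-93-3p.

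The hairpins show where each measured arm is cut from, with that arm in capitals.
Mir20a: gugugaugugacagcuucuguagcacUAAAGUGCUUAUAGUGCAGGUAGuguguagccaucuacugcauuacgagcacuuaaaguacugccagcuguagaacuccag
Mir17: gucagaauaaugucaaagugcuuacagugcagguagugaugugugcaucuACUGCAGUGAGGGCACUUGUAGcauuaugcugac
Mir93: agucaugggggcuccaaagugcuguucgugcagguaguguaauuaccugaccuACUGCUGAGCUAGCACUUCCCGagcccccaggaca
In the minimum free energy fold, 18 of the 23 bases of miR-20a-5p pair with miR-20a-3p, 15 of the 22 bases of miR-17-3p pair with miR-17-5p, and 17 of the 22 bases of miR-93-3p pair with miR-93-5p. The measured arm is thus the 5p strand of Mir20a and the 3p strand of Mir17 and Mir93. The opposite arm of Mir17 and that of Mir93 both carry the seed of miR-20a-5p. Their values were not identified here, so neither hairpin can be described by both of its arms.

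**Figure D1:**
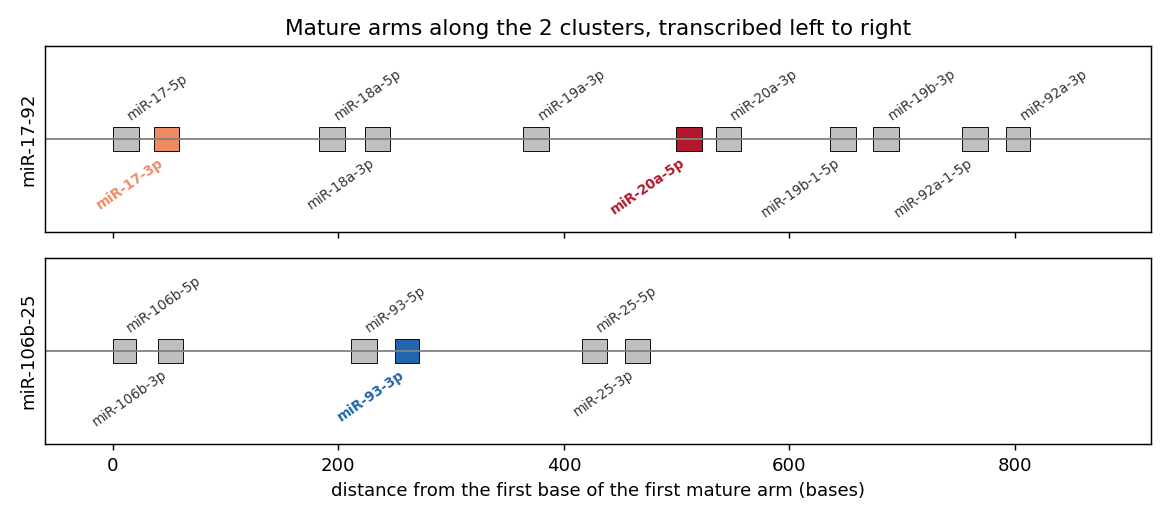
Mature arms of the miR-17-92 cluster (top) and the miR-106b-25 cluster (bottom), drawn to scale by distance in bases from the first base of the first arm in the direction of transcription. The 3 arms with identified values are coloured (red and orange higher, blue lower in CPZ), and the grey arms have sequences but no identified values. Only arms found in the RefSeq table are drawn, so Mir19a appears with miR-19a-3p alone.

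On the control array, miR-20a-5p stood at an RMA value, the array's normalized log2 signal, of 6.50, and on the CPZ array it stood at 7.42. It was thus higher in CPZ by 0.92 on the log2 scale, which is 1.9-fold. On the linear scale its signal was 90.3 in control and 171 in CPZ. The same pair of values stood at 15 probe sets, which were counted once because identical values give no further measurement.

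miR-17-3p, the 3p arm of the first hairpin of the same cluster, stood at 4.47 in control and at 5.31 in CPZ (RMA values). It was higher in CPZ by 0.84, which is 1.8-fold, and it was read by 1 probe set. Its linear signal was 22.2 in control and 39.7 in CPZ. The log2 differences of miR-17-3p and miR-20a-5p lay 0.09 apart. Both were higher on the CPZ array, and whether they differ from each other could not be tested with 1 array per diet.

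miR-93-3p, from the middle hairpin of the paralogous cluster, stood at 4.15 in control and at 3.35 in CPZ (RMA values). It fell by 0.79 on the log2 scale from the control to the CPZ array, which is 1.7-fold lower, at 3 probe sets with identical values. Its linear signal was 17.7 in control and 10.2 in CPZ. Its log2 difference lay 1.72 below that of miR-20a-5p and 1.63 below that of miR-17-3p. The direction therefore differed between the arms picked from either cluster, and this difference was not tested. Of the 3, miR-93-3p lay nearest to the threshold of 1.5-fold.

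**Figure D2:**
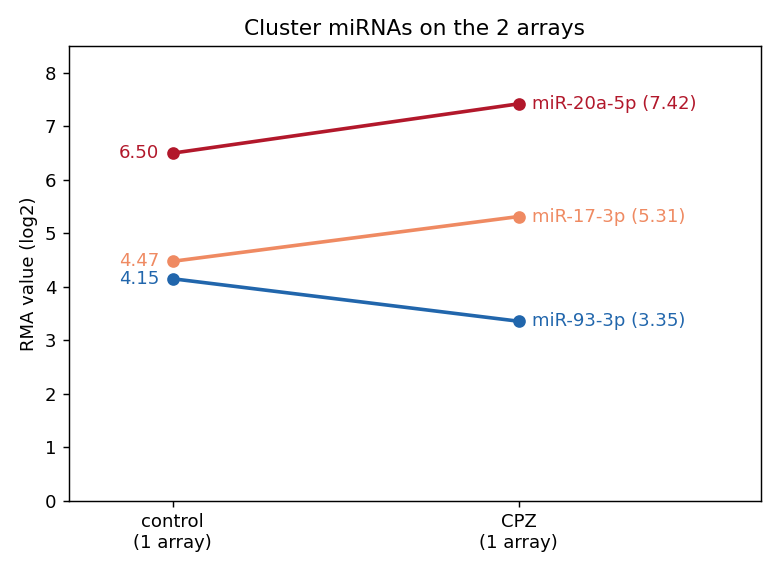
RMA values (log2) of the 3 miRNAs by diet, 1 point per array, with no error bars because each diet has 1 array. miR-20a-5p (6.50 to 7.42) and miR-17-3p (4.47 to 5.31) were higher in CPZ, and miR-93-3p (4.15 to 3.35) was lower.

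Of the 28 arms listed for the miR-17-92, miR-106b-25 and miR-106a-363 clusters, 26 were found in the RefSeq table and 3 had identified values. The other 25, among them miR-17-5p, miR-18a-5p, miR-19b-3p, miR-92a-3p, miR-93-5p, miR-106b-5p and miR-25-3p, are in neither list of the study, which does not show that they were under 1.5-fold. Of the 6 hairpins of miR-17-92, 2 were thus represented by an arm. For miR-106b-25 this was 1 of 3 hairpins, and none of the 6 hairpins of miR-106a-363 was represented.

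The identity of the probe sets rests on the match alone. For each miRNA the fold change alone and the volume alone found the same number of probe sets as both together, namely 15, 1 and 3. The distance of a probe set from the match was taken as the larger of its deviations in log2 fold change and in volume. The nearest probe sets outside the match were 0.21 away for miR-20a-5p, 0.10 for miR-17-3p and 0.058 for miR-93-3p, against a limit of 0.0002. Because the fold change and the volume together fix both array values, the match is no independent check of them.

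Over all 36249 probe sets, which include those of many organisms, 9.07% reached 1.5-fold in the direction of an increase in CPZ and 9.71% in that of a decrease. The study filtered its data to mouse probes, which was not done here. The shares therefore cover more than the set behind the study's lists. Identical pairs of values counted once left 6653 pairs, of which 15.1% were at least 1.5-fold higher and 19.1% at least 1.5-fold lower. All 3 miRNAs passed this threshold because they were picked by it, and nothing is read from their count. The study's list of lower miRNAs also holds miRNAs that were more than 8-fold lower, and these were not matched to probe sets here. Among the distinct pairs, a group of 38, not named here, were more than 8-fold lower in CPZ and 0 more than 8-fold higher. The part of this group, or of what it stands for, in the differences of the 3 miRNAs was not tested.

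**Figure D3:**
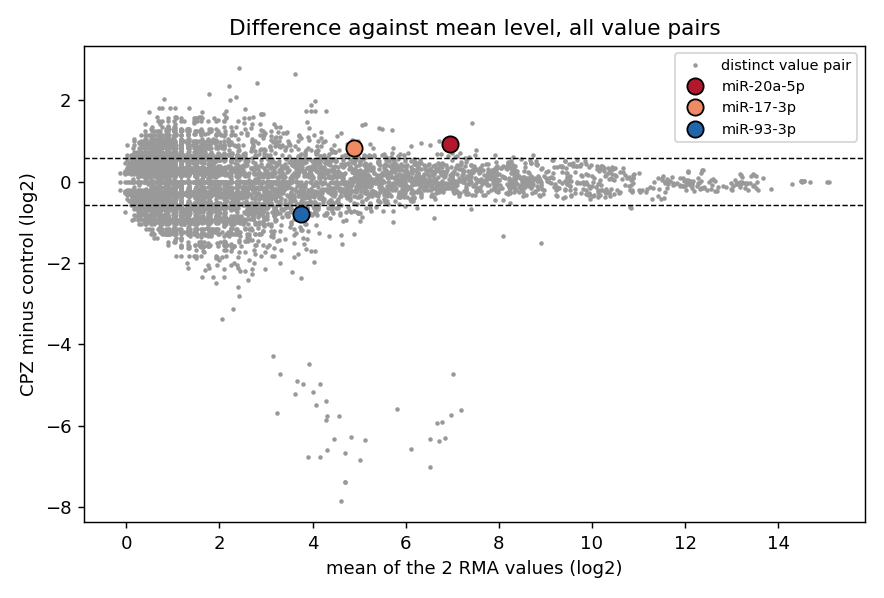
Difference between the arrays (CPZ minus control, log2) against the mean of the 2 RMA values (log2), with 1 grey point per distinct pair of values and the 3 miRNAs as coloured points. Dashed lines mark 1.5-fold. miR-20a-5p (0.92) and miR-17-3p (0.84) lie above the upper line and miR-93-3p (-0.79) below the lower one, as their choice by fold change requires.

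The spread between the arrays was wider among dim pairs, so each miRNA was set beside the distinct pairs with a mean RMA value within 0.5 of its own. Of 211 such pairs for miR-20a-5p, 12 (5.69%) reached an increase of 1.5-fold in CPZ, and 2 had a difference as large as that of miR-20a-5p or larger. The middle 50% of their log2 differences lay between -0.12 and 0.27.

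Of 355 pairs at the level of miR-17-3p, 36 (10.1%) were at least 1.5-fold higher, and 10 were higher by as much as miR-17-3p. The middle 50% lay between -0.28 and 0.29. At the level of miR-93-3p, 97 of 475 pairs (20.4%) were at least 1.5-fold lower, and 60 (12.6%) were lower by as much as miR-93-3p. The middle 50% lay between -0.51 and 0.35. As the 3 miRNAs were picked by their fold change, nothing is read from these counts about them. The shares describe the 2 arrays, were not limited to mouse probes, include other miRNAs picked for their fold change, and are not p-values.

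**Figure D4:**
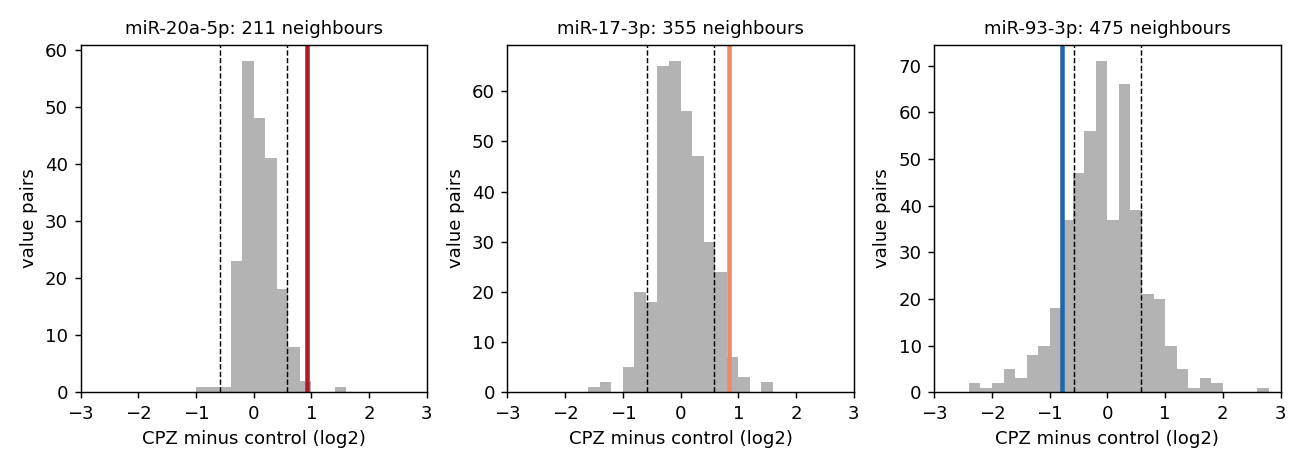
Log2 differences (CPZ minus control) of the distinct pairs with a mean RMA value within 0.5 of miR-20a-5p, miR-17-3p and miR-93-3p, as histograms of the number of pairs, with a coloured line at each miRNA and dashed lines at 1.5-fold. The axis ends at 3 on either side, beyond which 9, 9 and 10 pairs lie, all on the lower side. The line of miR-20a-5p has 2 pairs beyond it, that of miR-17-3p 10 and that of miR-93-3p 60.

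The pairs of values most like each miRNA, by the straight-line distance between their RMA values on both arrays, were counted without names. The 5 nearest to miR-20a-5p were 0.16 to 0.29 away, with log2 differences of 0.53 to 0.71, all under its own. The 5 nearest to miR-17-3p were 0.12 to 0.16 away, at 0.66 to 1.02. The 5 nearest to miR-93-3p were 0.067 to 0.11 away, at -0.89 to -0.66. Pairs close in both values have like differences by construction, so these ranges are no support for the differences of the 3 miRNAs. The distance is over 2 values, so a like pair says nothing of a shared cluster or control.

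Adding a constant to the linear signals shrinks the differences of dim probe sets most. With 16 added, miR-20a-5p was 1.76-fold higher in CPZ, miR-17-3p was 1.46-fold higher and miR-93-3p was 1.29-fold lower. With 64 added they were at 1.52-fold, 1.20-fold and 1.10-fold. A constant cannot change a sign, and how far it shrinks a difference is set by the level, so these values describe the signals and are no sign of stability.

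**Figure D5:**
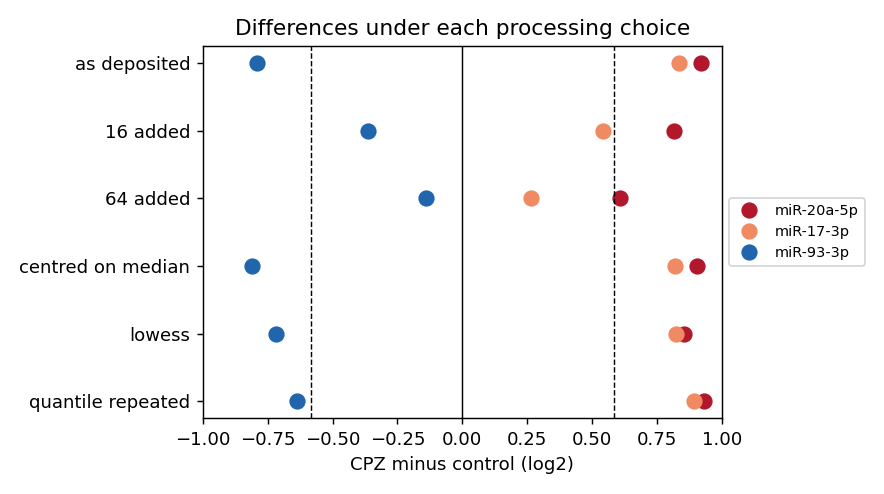
Log2 difference (CPZ minus control) of each miRNA as deposited and under 5 alternatives (a constant of 16 or 64, median centring, a lowess fit and a second quantile normalization), 1 point per miRNA and setting, with dashed lines at 1.5-fold and a solid line at 0. miR-20a-5p lies past the line in each setting (0.61 to 0.93), while miR-17-3p and miR-93-3p fall inside it with 16 and with 64 added.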

How the data were processed

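miRNA from mouse brain was measured on 2 Affymetrix miRNA 4.0 arrays, and samples were grouped by their labels. The authors labelled 1000 ng of RNA, summarized the probes by RMA with DABG in Affymetrix Power Tools and compared the samples by fold change. They kept only probes annotated to mouse, a filter that was not applied here. Versions are not given in the sources used here. The deposited values are log2 RMA values, 1 per probe set and array. RMA fits both arrays together, so they are not independent. No detection calls were used, and columns of other series numbered 0.

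The 3 miRNAs were located by fold change and volume (tolerance 0.0002). The members, lists and alternatives were chosen with earlier results of these data known. All other arms were to be named by sequence only. Differences are CPZ minus control of the log2 values. Sequences and their positions come from RefSeq tables (GRCm38.p6), and hairpins were folded with RNAfold 2.7.2. Functions were tested on simulated data. Alternatives were constants of 16 and 64 added to linear signals, centring, lowess (span 0.3), repeated quantile normalization, other tolerances and thresholds, and, chosen after seeing the data, other level windows. Python 3.11.15, numpy 2.4.6, pandas 2.3.3, statsmodels 0.14.6 and matplotlib 3.10.9 were used.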

Additional observations from a re-analysis of the deposited data

How the results depend on the processing

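With 16 added to both linear signals, the log2 difference of miR-17-3p was 0.54 and that of miR-93-3p -0.36, both under 1.5-fold, and with 64 added they were 0.27 and -0.14. The constants shrink dim probe sets most by construction. Centring, lowess and repeated quantile normalization gave 0.86 to 0.93 for miR-20a-5p, 0.82 to 0.89 for miR-17-3p and -0.81 to -0.64 for miR-93-3p. Centring took off a log2 shift of only 0.018. The lowess fit took off 0.066 at miR-20a-5p, 0.012 at miR-17-3p and -0.077 at miR-93-3p. Such shifts are small beside differences picked to pass 1.5-fold, so these values are no sign of stability. The probe sets matched were 15, 1 and 3 at each tolerance tried. At 2-fold in place of 1.5-fold, 1.88% of the probe sets were higher and 2.35% lower in CPZ. Counting identical pairs once gave 15.1% and 19.1% at 1.5-fold, and a mean level of at least 5 gave 6.06% and 2.99%. The share of pairs at the level of each miRNA past 1.5-fold in its direction was 4.37% to 6.60% for miR-20a-5p, 9.68% to 10.5% for miR-17-3p and 20.4% to 23.7% for miR-93-3p with windows of 0.25 to 1, chosen after seeing the data. The spread between replicates was not measured, since each diet has 1 array, and detection calls were not used here.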
